A study of Mus musculus with 2 samples.

Results

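Alveolar macrophages (AMs) that carried many transcripts of *Inhba*, the gene of the activin βA subunit, were described in 2 single-cell RNA libraries of sorted mouse AMs. The members were chosen by their *Inhba* UMIs (unique molecular identifiers, 1 for each captured transcript): a barcode needed at least 500 genes, at most 10% mitochondrial UMIs and at least 5 *Inhba* UMIs. By this rule 839 of 13851 filtered cells were members, 162 of 6185 in the control library and 677 of 7666 in the tumor library. The control library came from female C57BL/6 mice of post natal week 10 given vehicle (PBS), and the tumor library from mice of the same strain, sex and age that carried orthotopic Lewis lung carcinoma (LLC). In both, AMs were sorted by flow cytometry after enzymatic digestion of the lung, a step that the control AMs went through too. The study describes lung AMs as CD45+ autofluorescent Siglec-F+ F4/80+ CD11b- CD11c+ cells. The number of animals behind a library is not given in the sources used here. The study's methods assign barcodes to samples by hashtag reads, which were not used here, so each library was taken as the sample its label names. Each condition was 1 library, so the library and the condition cannot be told apart, no test between conditions was possible, and every interval given below covers counting error only.

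AMs live on the airspace side of the alveolus, clear surfactant and inhaled particles, and depend on GM-CSF and the nuclear receptor PPARγ for their identity. *Inhba* encodes the βA chain. A homodimer of βA chains is activin A, a ligand of the TGF-β superfamily that binds type II and type I activin receptors and signals through SMAD2 and SMAD3. A βA chain paired with the inhibin α chain (*Inha*) makes inhibin A instead, and follistatin (*Fst*) binds and neutralises activin. In macrophages *Inhba* is known as a gene induced by Toll-like receptor signalling. In GRCm38 the gene lies on the plus strand at chr13:16011851-16031621.

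The 2 libraries held 8485 and 9175 barcodes (control and tumor), with a median of 10370 and 8264 UMIs in filtered cells. They shared 25 barcode sequences, of which none was a member in both. Of 14 AM markers (among them *Siglecf*, *Marco*, *Pparg*, *Chil3* and *Fabp4*), each control member had between 7 and 14 with a UMI (median 12), and the tumor members between 1 and 14 (median 10), with 676 of 677 at 3 or more. By the same count 5300 of 5313 control and 5257 of 5282 tumor cells without *Inhba* held 3 or more. Nearly every sorted cell passes, so this count describes the members and cannot decide their identity. Of 5 interstitial macrophage markers (*C1qa*, *C1qb*, *C1qc*, *Cd163* and *Folr2*) all were at 0 in control members, and 4 tumor members carried 3 or more, with a summed level of 27.4 CPM (UMIs scaled to 1000000 UMIs in all) against 46.9 CPM in tumor cells without *Inhba*. The 5 monocyte markers summed to 4.97 and 9.65 CPM in control and tumor members, under the 8.43 and 19.99 CPM of cells without *Inhba*, with *Tgfb3* at 0 in both. The longer list of 8 monocyte and tumor-associated macrophage genes summed to 474 and 1046 CPM, above 354 and 906 CPM in the cells without *Inhba*, nearly all of it *Fn1*, a fibronectin gene that AMs also express and the only gene of the list with a ratio (0.44 and 0.21 on the log2 scale). The 5 neutrophil markers summed to 91.1 and 141 CPM, above the 69.1 and 120.0 CPM of cells without *Inhba*, with *S100a8* at 73.3 and 124 CPM of it, while *S100a9* and *Retnlg* were at 0 in the members of both libraries. The 4 dendritic markers summed to 8.28 and 5.61 CPM, above 3.89 and 3.99 CPM in the cells without *Inhba*, with *Flt3* and *Xcr1* at 0, and the 7 lymphoid markers to 0.828 and 0.521 CPM. The 5 epithelial markers (70.8 and 18.0 CPM) and the 6 stromal markers (2.07 and 2.09 CPM) were no higher than in the cells without *Inhba*. Whether cells of these other types play a part in any result below was not tested.

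*Inhba* itself is what chose the members, so its level is a description. Control members held 5 to 70 *Inhba* UMIs (median 8.5) and tumor members 5 to 141 (median 8). Summed over members the level was 879 CPM (95% interval 842 to 918) in the control and 980.0 CPM (95% interval 958 to 1002) in the tumor library. Members held 71.8% and 73.8% of all *Inhba* UMIs of filtered cells, although they were 2.62% (95% Clopper-Pearson interval 2.24 to 3.05%) and 8.83% (8.21 to 9.49%) of those cells. The 10 members with the most held 24.2% of member *Inhba* UMIs in the control library and 7.56% in the tumor library. Just inside the threshold, 28 control and 105 tumor cells held exactly 5 UMIs, at a median of 337 and 511 CPM of the cell, and just outside it 45 and 157 cells held exactly 4, at a median of 289 and 436 CPM. The threshold thus fell within a continuous range. Members were the deeper cells of their library, at a median of 14488 UMIs against 10315 in control cells with 0 *Inhba* UMIs, and 10274 against 8073 in the tumor library. When each cell was thinned to 3700 UMIs, which left out 582 control and 694 tumor cells, 38 of 5603 cells of the control library still held at least 5 *Inhba* UMIs (0.678%, 95% interval 0.480 to 0.930%), as did 215 of 6972 in the tumor library (3.08%, 2.69 to 3.52%). No cell type that should lack *Inhba* was sorted, so the share that free RNA gives was not measured.

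**Figure D1:**
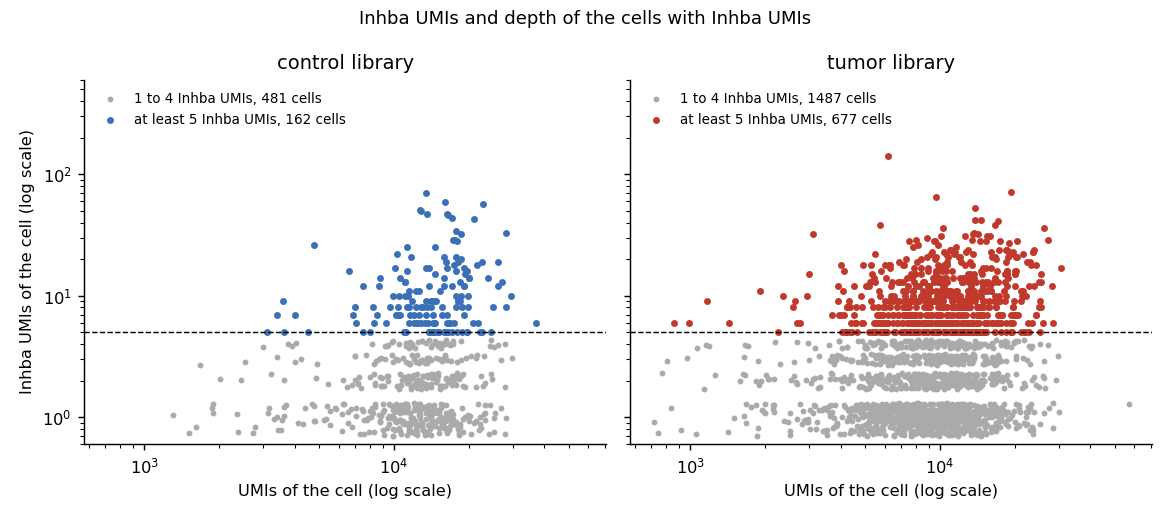
*Inhba* UMIs of each cell (log scale) against all UMIs of the cell (log scale), for cells with at least 1 *Inhba* UMI in the control library (left) and the tumor library (right). Grey points are cells with 1 to 4 UMIs (spread vertically by a small jitter), coloured points the 162 control and 677 tumor members above the dashed threshold of 5 UMIs, which run without a gap into the grey cells.

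The genes that go with *Inhba* were read within each library. The summed UMIs of the members were compared with those of the cells of the same library that had 0 *Inhba* UMIs and at least 2000 UMIs (5313 control and 5282 tumor cells, called *Inhba*-zero cells here), as a log2 ratio of CPM. Of the 5689 genes compared, 74 (1.3%) were at least 2-fold higher and 14 (0.246%) at least 2-fold lower in control members. In the tumor library 8 (0.141%) were higher and 8 (0.141%) lower by that fold. Of these, 7 genes (0.123%) were higher in both libraries, *Mmp12*, *Fstl1*, *Cxcl1*, *Cxcl3*, *Il1b*, *Anpep* and *Ereg*, which is 9.46% of the control genes and 87.5% of the tumor genes. Genes were kept by a mean of at least 20 CPM over the 4 groups, members included. *Anpep*, *Ereg*, *Cxcl3* and *Fstl1* had a mean under this in the *Inhba*-zero cells and passed only through the members. Genes high in the members of 1 library alone pass less easily, so the overlap is in part built in. With a minimum of 5 CPM, 13 genes were higher in both libraries, 137 in the control and 19 in the tumor library. The 6 genes (0.105%) lower in both were *Top2a*, *Mki67*, *Pclaf*, *Epcam*, *Gal* and *Acot1*. The eighth higher gene of the tumor library was *AA467197*, at 0.93 in the control and 1.32 in the tumor library on the log2 scale. No gene was past 2-fold in opposite directions. The calls of both libraries rested in part on few cells. Without the 5 members richest in the gene, an alternative chosen after seeing the data, *Fstl1* (1.01), *Cxcl1* (1.31) and *Cxcl3* (1.42) were still past 2-fold in the tumor library, and *Il1b* (0.95), *Anpep* (0.94), *Mmp12* (0.90), *AA467197* (0.90) and *Ereg* (0.66) were not. The 5 cells were taken from the members alone and the *Inhba*-zero cells were left whole, so ratios fall by design. They are also a larger share of the 162 control than of the 677 tumor members. A fall shows how much of a ratio few cells carried and is no test of the gene. In the control library only some of the 74 genes were read in this way. Those under 2-fold there were *Ccl4* (-0.015), *Cxcl3* (0.0025), *Nfkbiz* (0.48), *Ereg* (0.49), *Lif* (0.68), *Igf1* (0.78), *Il1a* (0.83), *Fabp4* (0.92), *Gadd45b* (0.92) and *S100a1* (0.93). With *Inhba*-zero cells weighted to the depth of the members, 58 of the 74 control genes and 4 of the 8 tumor genes were still past 2-fold. The tumor genes no longer so were *Ereg* (0.99), *AA467197* (0.97), *Fstl1* (0.87) and *Anpep* (0.63). Of the lower genes 10 of 14 in the control and 5 of 8 in the tumor library were still past 2-fold, the tumor genes lost being *Hspa1a* (-0.97), *Hspa1b* (-0.91) and *Acot1* (-0.82). With members of at least 3 *Inhba* UMIs 3 of these 8 tumor genes were still past 2-fold. Over all the alternatives the tumor ratios ranged over -2.44 to -0.76 for *Top2a*, -1.68 to -0.28 for *Mki67* and -1.32 to -0.63 for *Gal*. Of the 74 genes higher in control members, 73 had a log2 ratio above 0 in the tumor library, with a median of 0.49 there and 1.35 in the control library. The 74 were chosen for a high control ratio, so the larger control value is largely fixed by the choice. The 8 genes chosen in the tumor library had a median of 2.42 in the control library. Over all genes the medians were -0.07 and -0.03. Across the 5689 genes the 2 sets of log2 ratios had a Pearson r of 0.58 and a Spearman rho of 0.41, given as a description, since genes are not independent and the ratios of one library share its cells and depth.

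**Figure D2:**
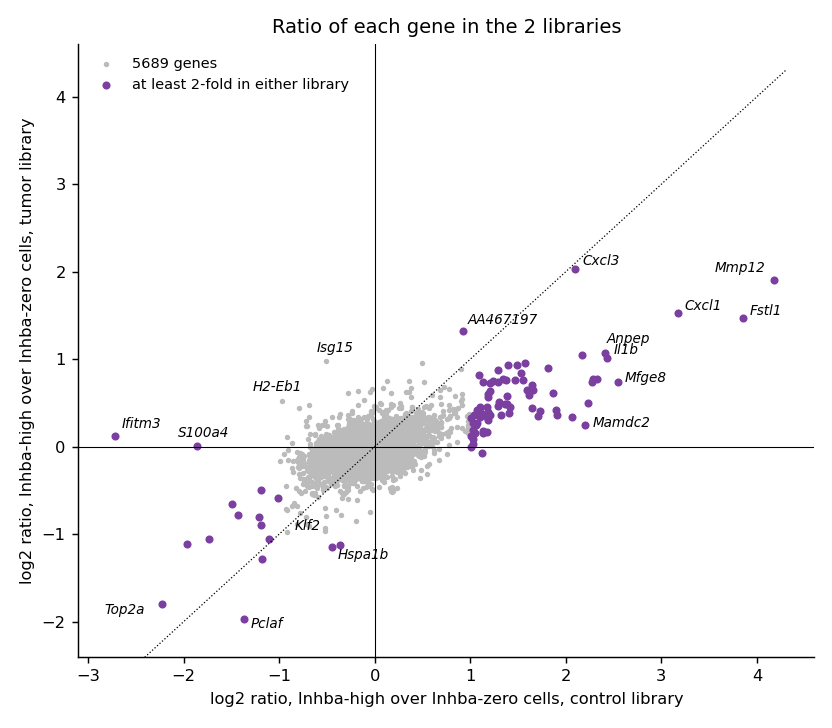
Log2 ratio of *Inhba*-high over *Inhba*-zero cells for each of 5689 genes in the control library (horizontal axis) and the tumor library (vertical axis). The dotted line marks equal ratios. Purple genes were at least 2-fold apart in either library, and most lie at the right below the line, with a larger ratio in the control library (*Mmp12*, 4.17 against 1.90), while *Cxcl3* lies near it, a place that rests on 5 control members.

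The CXC chemokines that draw neutrophils, which bind the receptor CXCR2, had the highest median log2 ratio of the 29 gene lists in both libraries, 2.10 in the control and 1.52 in the tumor library over the 3 members compared. The control median is the ratio of *Cxcl3*. Without the 5 members richest in each gene the 3 control ratios were 2.42 (*Cxcl1*), 1.24 (*Cxcl2*) and 0.0025 (*Cxcl3*), so the control median rested on those cells. *Cxcl1* was at 163 CPM in control members and 18.1 CPM in control *Inhba*-zero cells, and at 165 and 57.5 CPM in the tumor library. The summed levels of the 2 groups of members were close, and those of the *Inhba*-zero cells were not. The log2 ratio was 3.17 (95% interval 3.0 to 3.34) in the control and 1.52 (95% interval 1.43 to 1.62) in the tumor library. Without the 5 richest members of each library it was 2.42 and 1.31, so the close levels rested in part on 5 control members. *Cxcl2* was far more abundant, at 2056 against 691 CPM in the control and 2182 against 1127 CPM in the tumor library, with log2 ratios of 1.57 and 0.95, the latter just short of 2-fold. *Cxcl3* was at 38.5 against 8.99 CPM and 86.7 against 21.2 CPM, with log2 ratios of 2.10 and 2.03. The control ratio of *Cxcl3* rested on few cells, since 5 of the 162 members held 77.4% of its UMIs and the ratio was 0.0025 without them. In the tumor library it was 1.42 without the 5 richest members. After thinning to equal depth, *Cxcl1* had a UMI in 28 of 158 control members (17.7%) and 3.51% of control *Inhba*-zero cells, and in 116 of 662 tumor members (17.5%) and 9.80% of tumor *Inhba*-zero cells. Unthinned, these shares were 25.9%, 5.93%, 26.4% and 14%. Most members therefore had no *Cxcl1* UMI even where the summed level was high. *Cxcl5* was at 0 UMIs in every group. Of the 5 neutrophil markers *S100a9* and *Retnlg* were at 0 in the same members. The 5 markers together, *S100a8* among them, were above the *Inhba*-zero cells, at 91.1 against 69.1 CPM in the control and 141 against 120 CPM in the tumor library.

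Since *Cxcl1*, *Cxcl3* and *Mmp12* were among the genes higher with *Inhba* in both libraries, their promoters are shown from RefSeq (GRCm38.p6, 250 bases before to 50 after the start, 5′ to 3′ on the gene's strand), with matches in capitals to the AP-1 motif TGANTCA or to the κB motif, both searched on both strands. Of *Inhba* and the 7 genes higher in both libraries, all but *Ereg* had a promoter entry. Of the 32851 promoters listed, 7.81% held TGANTCA and 4.51% the κB motif. *Cxcl1* (chr5:90890995-90891294, plus strand) and *Cxcl3* (chr5:90785851-90786150, plus strand) each held the same match, GGGAATTTCC, beginning 71 and 73 bases before the start, and the opposite strand matched as well, shifted by 1 base, so the capitals span both. *Mmp12* has 2 starts among the entries, and the one at chr9:7347124-7347423 (plus strand) held TGAGTCA, beginning 44 bases before the start. *Inhba* (chr13:16011601-16011900, plus strand), *Il1b*, *Anpep* and *Fstl1* held no match to either. A match is a description of letters in a window, not of binding.
Cxcl1: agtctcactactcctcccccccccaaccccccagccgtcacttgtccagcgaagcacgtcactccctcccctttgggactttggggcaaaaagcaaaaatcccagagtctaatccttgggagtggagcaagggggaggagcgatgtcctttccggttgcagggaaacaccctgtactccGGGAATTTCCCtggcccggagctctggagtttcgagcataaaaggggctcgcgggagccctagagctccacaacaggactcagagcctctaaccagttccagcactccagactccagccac
Cxcl3: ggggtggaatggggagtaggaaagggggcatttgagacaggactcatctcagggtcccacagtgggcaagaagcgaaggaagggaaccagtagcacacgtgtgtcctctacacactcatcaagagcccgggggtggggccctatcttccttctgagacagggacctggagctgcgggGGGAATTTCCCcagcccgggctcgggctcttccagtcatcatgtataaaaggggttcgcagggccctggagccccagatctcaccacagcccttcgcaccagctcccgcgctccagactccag
Mmp12: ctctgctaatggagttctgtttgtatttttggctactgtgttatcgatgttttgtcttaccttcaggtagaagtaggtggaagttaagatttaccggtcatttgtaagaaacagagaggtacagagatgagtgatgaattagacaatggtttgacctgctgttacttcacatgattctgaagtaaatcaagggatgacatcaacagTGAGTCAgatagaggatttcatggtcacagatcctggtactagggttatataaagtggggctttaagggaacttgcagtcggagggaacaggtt
Inhba: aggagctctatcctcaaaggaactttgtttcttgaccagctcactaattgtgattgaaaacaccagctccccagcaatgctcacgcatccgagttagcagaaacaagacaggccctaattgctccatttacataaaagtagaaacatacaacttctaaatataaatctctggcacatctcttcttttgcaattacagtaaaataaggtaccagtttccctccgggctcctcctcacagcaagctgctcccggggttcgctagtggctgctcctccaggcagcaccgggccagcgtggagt

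Among the interleukin-1 family and other inflammatory cytokines, 3 of 9 genes compared were at least 2-fold higher in control members (1.3% of all genes were) and 1 in tumor members (0.141%), with list medians of 0.66 and 0.63. *Il1b*, a cytokine that is stored as a precursor and released by the inflammasome, was at 563 against 105 CPM in the control library and 1156 against 570.5 CPM in the tumor library. Tumor *Inhba*-zero cells thus already held as much *Il1b* as control members. Its log2 ratios were 2.43 (95% interval 2.34 to 2.52) and 1.02 (95% interval 0.98 to 1.05). *Il1a* was at 147 against 60.3 CPM in the control and 119 against 64.7 CPM in the tumor library, and *Lif*, of the interleukin-6 family, at 27.7 against 13.1 and 33.1 against 18.8 CPM. Without the 5 richest control members *Il1a* (0.83) and *Lif* (0.68) were under 2-fold. *Osm*, of the same family, had log2 ratios of 0.87 and 0.44. *Il18* was not among the higher genes, with -0.32 and -0.15.

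Of 6 CC chemokine genes compared, 4 (*Ccl9*, *Ccl3*, *Ccl4* and the chemerin-binding receptor *Ccrl2*) were at least 2-fold higher in control members (1.3% of all genes were) and none in tumor members (0.141%). *Ccl9* was at 263 against 83.9 CPM and 243 against 149 CPM, and *Ccl3*, an inflammatory chemokine, at 344 against 124 CPM and 249.8 against 148 CPM. *Ccl4* in the control library rested on 5 cells, and its log2 ratio of 1.07 became -0.015 without them. *Ccl6*, the most abundant of the list, had log2 ratios of 0.64 and 0.25.

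*Mmp12*, the macrophage metalloelastase that cleaves elastin, had the largest ratio in the control library. Control members held 1118 CPM (95% interval 1076 to 1161) against 62 CPM in *Inhba*-zero cells, an 18.0-fold ratio, and tumor members 156 CPM (95% interval 147 to 165) against 41.8 CPM in theirs, a 3.73-fold ratio. Control members were above tumor members for this gene by far more than the *Inhba*-zero cells of the 2 libraries were apart. It was also uneven between cells. At equal depth it had a UMI in 50% of control members and 8.31% of *Inhba*-zero cells, and in 8.61% and 3.59% in the tumor library (64.2%, 14.4%, 14% and 5.96% unthinned). In the tumor library 5 of 677 members held 50.5% of its UMIs, and without them the log2 ratio was 0.90, under 2-fold. In the control library it was 3.66 without the 5 richest.

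*Mfge8*, *Wfdc17* and *Anpep* were at least 2-fold higher in control members, and *Spp1* was under 2-fold in both libraries. *Mfge8*, a secreted bridge between dying cells and phagocytes, was at 268 against 46.1 CPM in the control and 144 against 86.7 CPM in the tumor library. *Wfdc17*, of the whey acidic protein family, was at 818 against 168 CPM and 693 against 405 CPM, and had a UMI in 85.8% of control and 80.6% of tumor members (69.6% and 65.7% at equal depth), against 28.7% and 46.6% of *Inhba*-zero cells at equal depth. Most members of both libraries thus held it. *Spp1*, which encodes osteopontin, was at 870.2 against 540.4 CPM in the control and 3326 against 2239 CPM in the tumor library. Its log2 ratios of 0.69 and 0.57 were close to each other while its level was several-fold higher in the tumor library in both kinds of cell. *Anpep*, the aminopeptidase CD13, was at 31.9 against 6.01 and 39.5 against 18.9 CPM.

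Within the activin family the members differed from *Inhba*-zero cells in few genes. *Inha* had 0 UMIs in all 4 groups of cells. *Inhbb*, which encodes the activin βB chain, had 0 UMIs in the members of both libraries, which allows up to 1.24 CPM in the control and 0.391 CPM in the tumor members at the limit of 3 counts. *Fst* was at the limit of 3 counts in control members, at 1.24 against 0.428 CPM (3 UMIs in members). In the tumor library it was above the limit but low, at 4.95 against 2.97 CPM. *Fstl1*, a secreted follistatin-like glycoprotein, was the exception, at 115 against 7.94 CPM in the control and 82.3 against 29.8 CPM in the tumor library. Its log2 ratios were 3.85 (95% interval 3.63 to 4.07) and 1.47 (95% interval 1.33 to 1.60), and 3.04 and 1.01 without the 5 richest members. With depth weighting the tumor ratio was 0.87, under 2-fold. *Tgfb1* had -0.08 and -0.03. Of 11 receptor, SMAD and feedback genes compared (among them *Acvr1b*, *Tgfbr1*, *Tgfbr2*, *Smad2*, *Smad4*, *Skil* and *Pmepa1*) none reached 2-fold in either direction in either library, and their medians were -0.09 and 0.01. *Pmepa1*, a TGF-β target gene, was at -0.41 and 0.07.

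Of 14 growth factor genes 4 could be compared, of which 3 were at least 2-fold higher in control members (1.3% of all genes were) and 1 in tumor members (0.141%). Of the EGF receptor ligands in the list, *Tgfa* had no UMI in the members of either library. *Areg* (amphiregulin) was at 52.2 against 10.4 CPM in the control and 30.2 against 17.7 CPM in the tumor library, and *Ereg* (epiregulin) at 36.8 against 8.20 CPM and 29.3 against 14.2 CPM. Without the 5 richest control members the log2 ratio of *Areg* was 1.21 in place of 2.33. For *Ereg* 5 control members held 69.7% of the UMIs, and the log2 ratio of 2.17 was 0.49 without them. In the tumor library 1.05 became 0.66. *Igf1* had 1.02 in the control (0.78 without the 5 richest members) and 0.27 in the tumor library.

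Most receptor and adaptor genes of Toll-like receptor signalling were under 2-fold. Of 18 genes of the Toll-like receptor, MyD88, TAK1 and JNK pathway compared, 1 was at least 2-fold higher in control members and none in tumor members, where 1.3% and 0.141% of all genes were, so 1 gene of a list this short is not set apart from the background. That gene was *Cd14*, the lipopolysaccharide co-receptor, at 414 against 179.6 CPM in the control and 540.1 against 325 CPM in the tumor library. *Myd88* had log2 ratios of -0.32 and -0.11 and *Tlr4* 0.14 and -0.09. Of 16 NF-κB subunit and feedback genes, 12 had a positive ratio in the control and 14 in the tumor library, with medians of 0.14 and 0.18, but only *Nfkbiz* in control members passed 2-fold, as 1.3% of all genes did (69.6 against 33.2 CPM), and its log2 ratio of 1.07 was 0.48 without the 5 richest members. None of 12 AP-1 genes did so. *Jun* was at 214 against 343 CPM in the control and 233 against 437 CPM in the tumor library. *Junb* was at 1200.2 against 798 CPM in the control and 1659 against 1598 CPM in the tumor library, with log2 ratios of 0.59 and 0.05. *Jund* had -0.07 and -0.11. Among 16 other immediate early genes 4 were at least 2-fold higher in control members (1.3% of all genes were) and none in tumor members (0.141%). The higher genes were *Gadd45b* (1.18 and 0.17), *Nr4a2* (1.37 and 0.76), *Nr4a3* (1.29 and 0.74) and *Ier3* (1.39 and 0.48), although *Gadd45b* was at 0.92 without the 5 richest control members. *Klf2* (-0.92 and -0.98) and *Egr1* (-0.79 and -0.76) were lower in the members of both libraries, but by less than 2-fold. The list as a whole had medians of 0.25 and -0.14.

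Genes of dividing cells were lower in members in the summed counts. Of 7 cell cycle genes compared, 4 were at least 2-fold lower in control members (0.246% of all genes were) and 2 in tumor members (0.141%), all 7 had ratios below 0 in both libraries, and the medians were -1.01 and -0.59. *Top2a*, the topoisomerase of mitosis, was at 12.8 against 60.0 CPM in the control and 7.56 against 26.2 CPM in the tumor library, and *Pclaf*, a PCNA-binding replication factor that is not in the list and was named for its low ratios, at 18.6 against 48.2 CPM and 5.35 against 21.0 CPM. Within *Apoe*-high tumor cells *Mki67* was not lower (0.06). These genes come from few cells. At equal depth *Top2a* had a UMI in 5 of 158 control members (3.16%, 95% interval 1.04 to 7.23%) against 6.43% of *Inhba*-zero cells, and in 9 of 662 tumor members (1.36%, 0.623 to 2.57%) against 2.82%. Unthinned shares were 4.94% against 9.58%, and 4.73% against 4.47%, so the tumor shares taken at unequal depth gave no lower value in members. The replication genes *Pcna* and *Mcm3* were nearer to the *Inhba*-zero cells, at -0.36 and -0.52 in the control and -0.07 and -0.03 in the tumor library.

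The inducible chaperones were lower in the tumor members. *Hspa1a* was at 85.7 against 110.2 CPM in the control and 137 against 299 CPM in the tumor library, and *Hspa1b* at 77.4 against 105 CPM and 162 against 357 CPM. The 2 genes are near-identical copies, so reads may be split between them. Of the 10 heat shock genes compared these were the only ones past 2-fold, in the tumor library alone, where 0.141% of all genes were at least 2-fold lower. With depth weighting neither was (-0.97 and -0.91), and the constitutive *Hspa8* had 0.02 and -0.04. Both are dissociation-responsive genes in tissue work, and the lungs were digested before the sort. Whether digestion plays a part in these values was not tested.

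AM identity genes did not move as one. Of 25 such genes, 13 had a ratio above 0 in the control and 12 in the tumor library, with medians of 0.10 and -0.01. In control members 3 were at least 2-fold higher (*Fabp5*, *Fabp4* and *S100a1*), and in tumor members none, with 1.3% and 0.141% of all genes past that fold. Without the 5 richest members *Fabp4* (0.92) and *S100a1* (0.93) were under 2-fold. The scavenger receptor *Marco* was lower, at 367 against 608 CPM in the control and 158 against 224 CPM in the tumor library. The eosinophil-associated ribonucleases *Ear1* (-0.84 and -0.64) and *Ear2* (-0.60 and -0.47) and the lipid droplet gene *Cidec* (-0.91 and -0.72) were lower as well. None of these genes reached 2-fold in either library. The fatty acid binding protein *Fabp5* was higher, at 2349 against 898 CPM and 2374 against 1584 CPM, while *Fabp1* was lower, at 195 against 548 CPM and 91.1 against 143 CPM. *Car4*, the membrane carbonic anhydrase, had 0.49 and 0.95. *Siglecf* (-0.04 and -0.15), *Mrc1* (-0.06 and -0.04), *Pparg* (0.10 and -0.16) and *Cd9* (-0.01 and -0.01) were near the *Inhba*-zero cells. *Epcam*, an adhesion molecule and one of the epithelial markers above, was at 25.3 against 57.2 CPM in the control and 2.09 against 5.08 CPM in the tumor library. Of 16 iron and NRF2 genes compared, 4 were above 0 in the control (median -0.10) and 11 in the tumor library (median 0.08), with none past 2-fold. Among them the cystine transporter *Slc7a11* had nearly the same ratio in both libraries (0.90 and 0.89, 349.8 against 187 and 338 against 182 CPM). The reference genes *Actb* (-0.22 and -0.06), *Gapdh* (-0.16 and 0.02) and *Ptprc* (-0.16 and -0.04) give the scale of small differences.

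**Figure D3:**
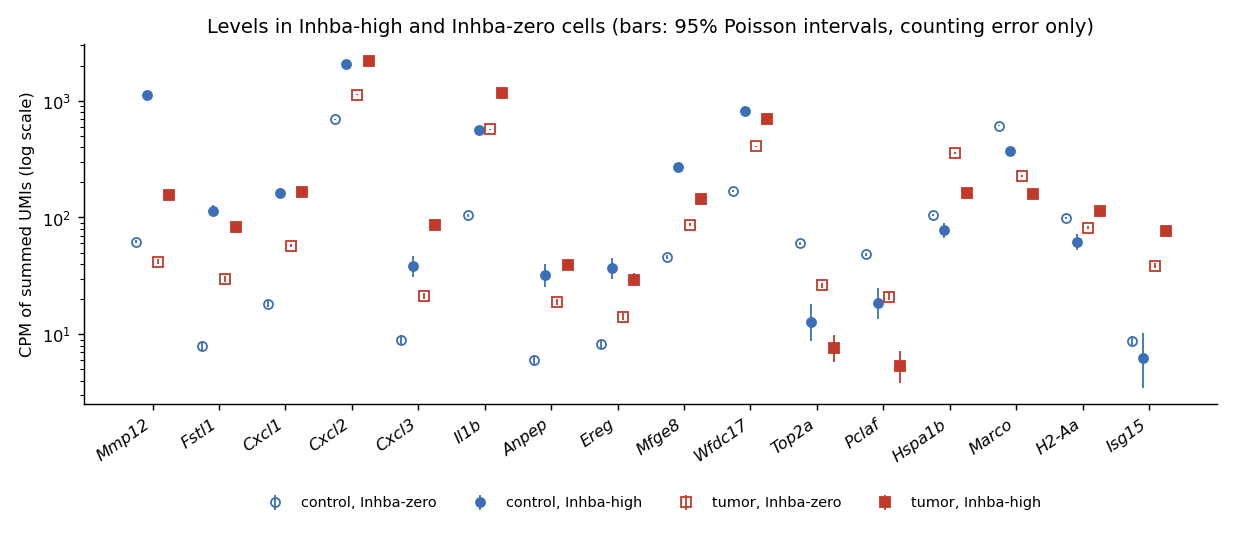
Level of 16 genes (CPM of summed UMIs, log scale) in *Inhba*-zero cells (open symbols) and *Inhba*-high cells (filled symbols) of the control library (circles) and the tumor library (squares), with 95% Poisson intervals that cover counting error only. For *Cxcl1* and *Cxcl2* the filled symbols of both libraries lie close together above open symbols that differ, for *Mmp12* the filled circle (1118 CPM) stands far above the filled square (156 CPM), and for *H2-Aa* the order of open and filled turns between the libraries.

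The 2 programs were then set against each other gene by gene, as the difference of the log2 ratios, tumor minus control. The largest differences toward the control library were *Fstl1* (-2.39, 95% interval -2.65 to -2.13), *Mmp12* (-2.27, 95% interval -2.4 to -2.14), *Mamdc2* (-1.96, 95% interval -2.26 to -1.65), *Mfge8* (-1.81, 95% interval -1.96 to -1.65) and *Syngr1* (-1.74, 95% interval -2.04 to -1.43), in the summed counts. Without the 5 richest members the control and tumor ratios were 3.04 and 1.01 for *Fstl1* and 3.66 and 0.90 for *Mmp12*, so the order of these 2 genes turned. All of these ratios fall by design when cells are taken from the members alone. Within *Apoe*-low cells *Mmp12* was at 4.24 in the control and 2.85 in the tumor library, the latter 1.53 without the 5 richest members. *Cxcl3* (-0.06, 95% interval -0.42 to 0.30) and *Slc7a11* (-0.01, 95% interval -0.13 to 0.11) did not differ beyond counting error, but for *Cxcl3* this rested on 5 control members, without which the control ratio was 0.0025 (tumor 1.42 without its 5 richest). For the 74 genes higher in control members, the level in tumor members over control members had a median log2 ratio of 0.05, with 40 of 74 above 0, while the level in tumor *Inhba*-zero cells over control *Inhba*-zero cells had a median of 0.90, with 70 of 74 above 0. Over all genes these medians were 0.03 and -0.02. Between members, 8 of the 74 genes were at least 2-fold higher and 3 at least 2-fold lower in the tumor library, *Mmp12* among the latter. Between *Inhba*-zero cells these numbers were 33 and 0. Over all 5689 genes they were 96 and 40 between members, and 101 and 27 between *Inhba*-zero cells. The 74 genes were chosen by the control values, which enter both medians, so the medians carry no test.

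Differences toward the tumor library included genes of antigen presentation and of the interferon response. No MHC class II gene compared passed 2-fold in either library. *H2-Eb1* was at 24.0 against 47.2 CPM in the control and 58.1 against 40.6 CPM in the tumor library (difference 1.49, 95% interval 1.09 to 1.92), *H2-Aa* at 61.7 against 99 CPM and 113 against 81.8 CPM, *H2-Ab1* at 70.0 against 113 CPM and 117 against 92.5 CPM, and the invariant chain *Cd74* at 312 against 456 CPM and 408 against 343 CPM. Of 6 genes of this list compared, none passed 2-fold, all 6 were below 0 in the control and 5 above 0 in the tumor library, with medians of -0.62 and 0.30. When the tumor *Inhba*-zero cells were weighted to the depth of the members, the tumor ratios shrank to 0.01 for *H2-Eb1*, 0.10 for *H2-Aa* and -0.04 for *H2-Ab1*, and so were near 0 at matched depth, whereas the control ratios were then -0.98, -0.63 and -0.65. In the control library *H2-Eb1* was uneven among *Inhba*-zero cells, with a highest value of 13315 CPM in a cell and none above 498 CPM among members.

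The interferon-stimulated gene *Isg15* was at 6.21 against 8.83 CPM in the control library (15 UMIs in members) and 76.5 against 38.7 CPM in the tumor library, where its log2 ratio was 0.98 (95% interval 0.85 to 1.12). Of 7 genes of the list compared, 6 were above 0 in the tumor library (*Irf7* 0.67, *Gbp2* 0.50, *Bst2* 0.45) and 3 in the control library, where their levels were low, and none was past 2-fold in either. With *Inhba*-zero cells weighted to the members' depth the tumor ratios were 0.24 (*Irf7*), 0.28 (*Gbp2*), 0.10 (*Bst2*) and 0.49 (*Isg15*). Control ratios ranged over 0.04 to 0.71 (*Irf7*), 0.15 to 0.41 (*Gbp2*) and -0.10 to 0.08 (*Bst2*) across the alternatives, so *Irf7* and *Gbp2* were above 0 there too. *Ifitm3*, which is not in the list, had 2 UMIs in control members, a log2 ratio of -2.72 (95% interval -5.77 to -0.85) there and 0.13 (95% interval -0.02 to 0.27) in the tumor library, where the alternatives gave -0.54 to 0.76. *Oas3* had 0 UMIs in control members and 61 in control *Inhba*-zero cells, so it has no ratio there, and it was at 48.1 against 31.5 CPM in the tumor library. *S100a4* (1.87, 95% interval 1.16 to 2.68) and *S100a6* (0.91, 95% interval 0.56 to 1.27), genes of an *Apoe* list that was picked from these libraries, were lower in control members (6.62 against 24.0 and 29.4 against 53.6 CPM), and in the tumor library they were at 160.2 against 159 and 582 against 566 CPM. The list did not move as one. Of its 18 genes 10 were above 0 in the control (median 0.03) and 15 in the tumor library (median 0.09). In control members 2 were at least 2-fold higher (1.3% of all genes were), *Crip1* (1.40) and *Gpnmb* (1.36), and 1 was lower (0.246%), *S100a4*.

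The tumor library held cells rich in *Apoe*, the apolipoprotein E gene of lipid-handling macrophages, and the members were therefore also read within cells under and over 300 *Apoe* CPM. Of the 677 tumor members 148 (21.9%) were over this limit, close to the 19.8% of the *Inhba*-zero cells, and 43 of them lay under 600 CPM. Only 2 of 162 control members were over it, so the control library gives no such reading. Members were 8.65% of the *Apoe*-low and 9.53% of the *Apoe*-high filtered cells of the tumor library. Within *Apoe*-low tumor cells 13 genes (0.229%) were at least 2-fold higher and 8 (0.141%) lower in members, and within *Apoe*-high cells 8 (0.141%) higher and 35 (0.615%) lower. *Cxcl1* had log2 ratios of 1.47 (95% interval 1.35 to 1.59) in *Apoe*-low and 1.62 (95% interval 1.44 to 1.80) in *Apoe*-high cells, and *Il1b* had 1.02 (95% interval 0.98 to 1.06) and 0.98 (95% interval 0.91 to 1.04). *Cxcl2* was under 2-fold in both (0.95 and 0.92), and *Ccl4* was at 0.60 in *Apoe*-low and -0.12 in *Apoe*-high cells. *Fstl1* was at 56.4 against 17.8 CPM in *Apoe*-low cells and 161 against 72.0 CPM in *Apoe*-high cells. *Mmp12* was at 173 against 24.0 CPM in *Apoe*-low cells, a log2 ratio of 2.85 (95% interval 2.72 to 2.98), and at 104 against 104 CPM in *Apoe*-high cells, a log2 ratio of -0.01 (95% interval -0.24 to 0.21). With limits of 150 and 600 CPM, chosen after seeing the data, the *Apoe*-high ratio was 0.37 and -0.08, and the *Apoe*-low ratio 2.86 and 2.80. Few cells set these values. Of the *Mmp12* UMIs of *Apoe*-low members 5 cells held 60.4% and of those of *Apoe*-high members 79.1%, and without them the ratios were 1.53 and -2.19. The cells were taken from the members alone, so both ratios fall by design, and 5 cells weigh more among 148 *Apoe*-high members. The value of -2.19 therefore does not show that *Mmp12* was lower in *Apoe*-high members. Without the 5 members of each stratum richest in the gene, also chosen after seeing the data, *Fstl1* was at 0.77 in *Apoe*-low and 0.43 in *Apoe*-high cells, *Cxcl1* at 1.17 and 0.96 and *Il1b* at 0.94 and 0.79. The AM identity list had a median near 0 in both strata (0.01 in *Apoe*-low and 0.0014 in *Apoe*-high cells), but 2 genes chosen after their values were seen were lower in *Apoe*-high members, *Marco* at 15.3 against 65.4 CPM and *Fabp1*, a gene of the lipid list, at 12.2 against 49.8 CPM, while in *Apoe*-low cells these log2 ratios were -0.40 and -0.54. The *Apoe*-high values rest on 29 and 23 UMIs in members, 51.7% and 69.6% of them in 5 cells, and the log2 ratios of -2.09 and -2.03 were -1.29 and -1.45 with a limit of 150 CPM and -2.39 and -2.51 with 600 CPM.

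Cells with 1 to 4 *Inhba* UMIs are not members, but they were grouped by the same *Inhba* UMIs that the rule used. There were 481 such cells in the control and 1487 in the tumor library. All 74 genes higher in control members also had a ratio above 0 in these control cells, with a median of 0.77, against -0.03 over all genes, and all 8 genes higher in tumor members did so in the tumor library, with a median of 0.59, against -0.01. All 14 genes lower in control members were below 0 in them (median -0.75), but of the 8 lower in tumor members 3 were above 0 (median -0.49). These 3 were the cell cycle genes *Top2a* (0.39, 95% interval 0.23 to 0.54), *Mki67* (0.37, 95% interval 0.22 to 0.51) and *Pclaf* (0.25, 95% interval 0.07 to 0.42). These cells share the *Inhba*-zero cells with the main comparison, against which the genes were chosen. Ratios of the same sign are therefore in part built in, and this is a description of order. *Mmp12* was at 62, 229, 543, 723 and 1559.7 CPM in control cells with 0, 1 to 2, 3 to 4, 5 to 9 and at least 10 *Inhba* UMIs, and at 41.8, 66.2, 55.2, 130.1 and 188 CPM in the same order in the tumor library. *Il1b* was at 105, 238, 323, 558 and 568 CPM in the control and 570.5, 776, 942, 1051 and 1287 CPM in the tumor library. Every step of *Il1b* went up, although the last step of the control library was within counting error. *Cxcl1* was at 18.1, 37.1, 85.3, 104 and 229 CPM and at 57.5, 77.3, 111, 112 and 232 CPM, so the 2 libraries were apart at 0 and close in the cells with at least 10 *Inhba* UMIs, within the limit on few cells given for this gene above. *Hspa1b* went the other way in the tumor library, at 357, 249, 203, 204 and 108 CPM. Depth went up along the same order, from a median of 10315 to 16327 UMIs in the control and from 8073 to 10955 UMIs in the tumor library. In cells thinned to 3700 UMIs, with 0, 1, 2 and at least 3 *Inhba* UMIs left, *Mmp12* was at 68.6, 386, 646 and 1437 CPM in the control and 33.0, 55.3, 64.1 and 162 CPM in the tumor library, and *Il1b* at 114, 235, 529 and 623 CPM and 609, 849, 1109 and 1265 CPM. Unthinned, *Mmp12* of the tumor library was lower at 3 to 4 than at 1 to 2 *Inhba* UMIs, a dip that the thinned groups, which are cut at other numbers, do not show.

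**Figure D4:**
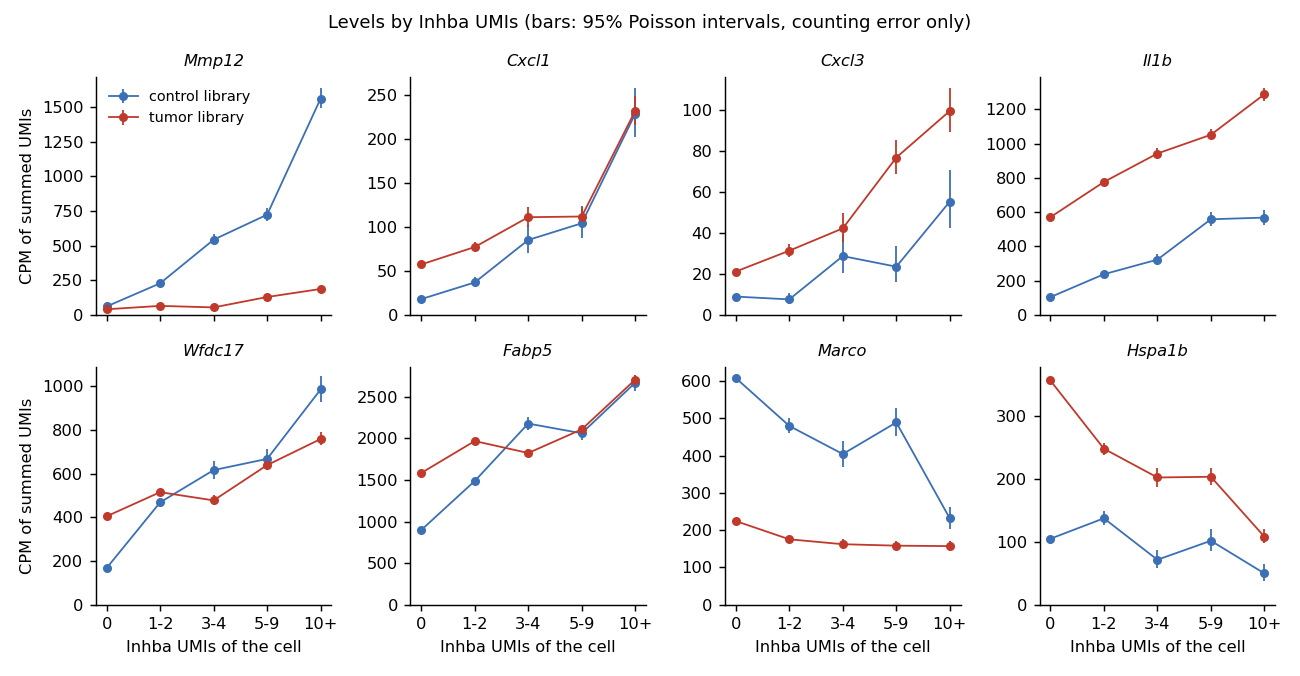
Level of 8 genes (CPM of summed UMIs, from 0) in cells grouped by their *Inhba* UMIs, in the control library (blue) and the tumor library (red), with 95% Poisson intervals that cover counting error only. *Cxcl1* of the libraries lies at 229 and 232 CPM in cells with at least 10 *Inhba* UMIs, *Mmp12* climbs mainly in the control library, and *Hspa1b* of the tumor library declines.

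The members were not uniform. For each gene list, a cell was called high, as a range of a score and not a type, when its summed level, after thinning to 3700 UMIs, was above the 90th percentile of the *Inhba*-zero cells of its library. For CXC chemokines 46 of 158 (29.1%, 95% interval 22.2 to 36.9%) of control members were high, against 9.33% of *Inhba*-zero cells, and 139 of 662 (21.0%, 95% interval 18.0 to 24.3%) of tumor members, against 9.05%. The limits were 8 and 13 UMIs, and 11 control and 46 tumor members lay within 1 UMI of them. For inflammatory cytokines the shares were 40 of 158 (25.3%, 95% interval 18.7 to 32.8%) in the control and 169 of 662 (25.5%, 95% interval 22.2 to 29.0%) in the tumor library, with 36 control and 53 tumor members within 1 UMI of limits of 8 and 15 UMIs. Most members were thus not high in these lists. Of the 46 control members high in CXC chemokines 26 were also high in inflammatory cytokines, and of the 139 tumor members 67 were. The list of osteopontin, proteases and matrix genes was high in 58 of 158 (36.7%, 95% interval 29.2 to 44.7%) of control and 127 of 662 (19.2%, 95% interval 16.3 to 22.4%) of tumor members, and that of CC chemokines in 57 of 158 (36.1%, 95% interval 28.6 to 44.1%) and 102 of 662 (15.4%, 95% interval 12.7 to 18.4%). AM identity was high in 51 of 158 (32.3%, 95% interval 25.1 to 40.2%) of control members, and the abundant *Chil3* (17431 CPM in control members, against 11078 CPM) made up much of the summed level of the list (36251 CPM). In the tumor library the share was 79 of 662 (11.9%, 95% interval 9.56 to 14.6%). The interferon list was high in 97 of 662 (14.7%, 95% interval 12 to 17.6%) of tumor members, against 9.56% of *Inhba*-zero cells, and 7 of 158 (4.43%, 95% interval 1.80 to 8.92%) of control members, against 5.55%. The control limit was 2 UMIs with 84 members within 1 UMI of it, and the tumor limit 4 UMIs with 134 within 1 UMI, so these shares resolve little. Heat shock was high in few members, 7 of 158 (4.43%, 95% interval 1.80 to 8.92%) and 24 of 662 (3.63%, 95% interval 2.34 to 5.35%), as was cell cycle, 6 of 158 (3.80%, 95% interval 1.4 to 8.08%) and 36 of 662 (5.44%, 95% interval 3.84 to 7.45%). Of the members, 35 of 158 in the control and 163 of 662 in the tumor library were high in none of 11 lists looked at together (CXC chemokines, inflammatory cytokines, *Apoe* program, interferon, MHC class II, heat shock, cell cycle, AM identity, matrix, NRF2 and iron, and lipid).

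**Figure D5:**
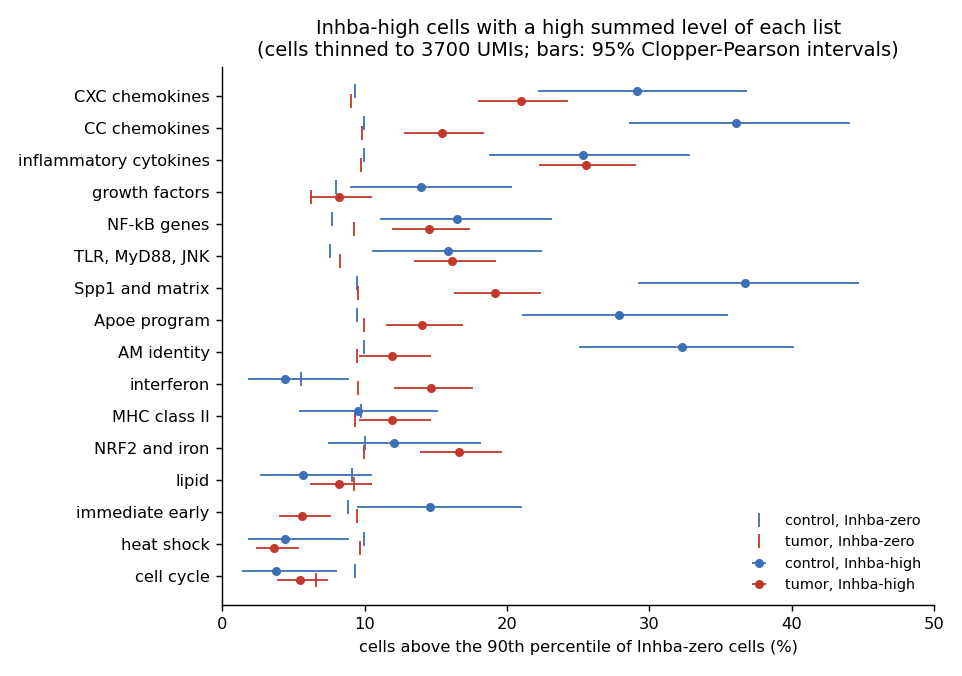
Share of *Inhba*-high cells (points, with 95% Clopper-Pearson intervals) and of *Inhba*-zero cells (ticks) whose summed level of a gene list lies above the 90th percentile of the *Inhba*-zero cells of the same library, in cells thinned to 3700 UMIs, for the control library (blue) and the tumor library (red). The points of the chemokine, cytokine and matrix lists lie to the right of the ticks in both libraries, and those of heat shock to the left.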

How the data were processed

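Sorted AMs of 2 libraries (control and tumor, 1 each) were measured by 10x single-cell 3′ RNA sequencing. The authors deposited raw UMI counts per gene and barcode. Per the labels these counts came from bcl2fastq 2.20 and Cell Ranger 4.0.0 with mm10, although the study's methods name another Cell Ranger release, and an animal number behind each library is not given in the sources used here. Of 32285 gene IDs 32158 matched a symbol. Barcodes were kept with at least 500 genes and at most 10% mitochondrial UMIs. Counts were summed over cells and divided by the summed UMIs (CPM). Genes needed a mean of at least 20 CPM over the 4 groups of cells and a UMI in each, which leaves 5689, with *Inhba* left out because it chose the members. CPM carry exact Poisson intervals, log2 ratios exact conditional binomial intervals, and shares Clopper-Pearson intervals (95%). UMI counts of 1 library are not replicates, so no p-value was computed. Named genes were the 15 highest and 10 lowest of each library, the 10 that differed most each way, up to 4 of each of 29 lists and a fixed set; other list members named in the text were chosen after their values were seen. Members and lists were chosen with earlier results of these data known, and the *Apoe* list was picked from these libraries. *Aldoa* (2 IDs) and *Il36g* were not used. Scrublet (scanpy 1.11.5) called 0 doublets by its automatic threshold, which gave no usable call, and doublets were kept. As an alternative up to the highest 6% of scores were left out (274 control and 410 tumor barcodes, ties at the limit kept). These held 7.39% of tumor members against 4.79% of tumor *Inhba*-zero cells, and 4.32% against 4.59% in the control library. Methods were tested on simulated data.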

Additional observations from a re-analysis of the deposited data

Results flagged for a closer look

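For 8 named genes the 2 libraries gave log2 ratios with intervals on opposite sides of 0 and a size of at least 0.5 in one of them. The difference was not tested, since each condition is 1 library. Control and tumor ratios were -0.97 and 0.52 for *H2-Eb1*, -0.68 and 0.47 for *H2-Aa*, -0.69 and 0.34 for *H2-Ab1* and -0.55 and 0.25 for *Cd74*. They were -0.80 and 0.44 for *AW112010*, an interferon-responsive RNA, -0.71 and 0.29 for *Ube2l6*, the ISG15-conjugating enzyme, -0.92 and 0.11 for *Tgfbi*, and -0.72 and 0.24 for *Vps13a*. Over the alternatives the control ratios of all 8 stayed below 0, while the tumor ratio of *H2-Ab1* ranged over -0.04 to 0.58, of *Cd74* over -0.14 to 0.36, of *Tgfbi* over -0.0022 to 0.15 and of *Vps13a* over -0.01 to 0.30, and so did not hold its side in each.

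Barcodes outside the quality filter also held *Inhba*. At least 5 *Inhba* UMIs were found in 15 barcodes of the control library and 42 of the tumor library that failed the limit on genes or on mitochondrial UMIs, and summed over all such barcodes *Inhba* was at 80.1 and 378 CPM. These barcodes entered no comparison.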

How the results depend on the processing

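No paired analysis was possible because each condition is 1 library. The member counts moved with the threshold and depth: with at least 10 *Inhba* UMIs there were 71 control and 277 tumor members, with at least 3 there were 262 and 1024, and after thinning to 3700 UMIs 38 and 215. Counts of genes past 2-fold moved as follows, the order being control higher, control lower, tumor higher, tumor lower, both higher and both lower, with 74, 14, 8, 8, 7 and 6 as reported. With at least 10 *Inhba* UMIs, control lower was 78, tumor higher 26 and both higher 19. With at least 3, tumor lower was 3 and both lower 2. With members chosen by at least 500 *Inhba* CPM, control lower was 48. With *Inhba*-zero cells weighted to the members' depth, control lower was 31, tumor higher 4 and both higher 4. With a minimum of 50 CPM the counts were 44, 6, 4, 2, 4 and 0, and with 5 CPM 137, 126, 19, 44, 13 and 30, where fewer and more genes were compared. Other counts, among them those with ratios centred on their median, with the mean CPM of each cell or without likely doublets, stayed within 1.5 times. Causes were not tested. Of the 74 control and 8 tumor higher genes, 58 and 4 were still past 2-fold with depth weighting, and no ratio past 2-fold changed its sign in any of these alternatives. The alternative without the 5 members richest in the gene, chosen after seeing the data, was read for only some of the 74 control genes. It takes cells from the members alone, so its ratios fall by design. With it *Ccl4* of the control library turned to -0.015 and *Cxcl3* of *Apoe*-high tumor cells to -1.04. Other genes read in this way that fell under 2-fold are named with their values in the text. Depth limits the low genes: 3 UMIs are 1.24 CPM in control and 0.391 CPM in tumor members.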

Other observations

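Genes of cholesterol synthesis were among those higher in control members, a group chosen after its values were seen and given with no test. Of 19 enzymes of the pathway, 14 had enough counts. Of these, 9 were at least 2-fold higher in control members (1.3% of all genes were), 13 had a ratio above 0, and the median log2 ratio was 1.11. In the tumor library all 14 were above 0 but none reached 2-fold (0.141% of all genes did), and the median was 0.41. *Sqle*, squalene epoxidase, was at 54.2 against 17.2 CPM in the control and 48.8 against 31.1 CPM in the tumor library, and *Fdps*, which makes farnesyl diphosphate, at 127 against 41.6 CPM and 78.7 against 52.3 CPM. The efflux transporter *Abca1* went the other way, at 38.9 against 89.0 CPM and 45.0 against 63.4 CPM. At equal depth the 14 genes and the other 5 gave a mean of 4.03 UMIs per control member against 2.24 per *Inhba*-zero cell, and 4.40 against 3.37 in the tumor library.

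Some list genes under the mean of 20 CPM, also chosen after their values were seen, were more abundant in tumor members. *Ptgs2*, the inducible cyclooxygenase, was at 41.5 against 13.2 CPM in the tumor library and had 2 UMIs in control members. The interferon-induced chemokines *Cxcl9* and *Cxcl10* were at 35.6 against 17.3 CPM and 29.5 against 11.4 CPM, and *Vegfa* at 46.3 against 23.9 CPM, with 4, 1 and 7 UMIs in control members. Tumor cells with 1 to 4 *Inhba* UMIs held 35.7 CPM of *Cxcl9* and 24.6 CPM of *Cxcl10*, so these levels were not particular to members. *Il6* was at 12.8 against 2.51 CPM in the control (31 UMIs) and 38.8 against 24.7 CPM in the tumor library.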
